A study of Mus musculus with 12 samples.

Results

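Macrophages and their monocyte precursors were followed through 38 marker genes in whole-kidney RNA from a mouse study of diabetes and the atypical chemokine receptor D6. The genes were chosen by symbol, as macrophage, monocyte and pan-leukocyte surface and signalling genes, and each was read from the probe set annotated to that symbol alone. Earlier results of these data were known when they were chosen. The shares of all genes set beside their counts therefore describe the list and do not test it. Of the 38, 37 had such a probe set, 1 apiece, among 19936 genes in all, and Slc11a1 was not analysed here. A filter on low values left 35 of the 37 among 16480 genes tested, and Cd163 and Cd84, which did not pass it, are given as values only.

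The kidneys came from mice of 6 months of age on the FVB background, in 4 groups of 3 mice with 1 array each. FVB mice were non-diabetic with D6 intact (D6+/+). D6 mice were non-diabetic and lacked D6 (D6-/-). OVE mice were diabetic with D6 intact, and OVE-D6 mice were diabetic and homozygous for the D6 deletion. The OVE26 transgene overproduces calmodulin in the insulin-producing beta cells of the pancreas, which fail, so that diabetes starts early in life. The D6 deletion came from C57BL/6 mice, was crossed to FVB for at least 10 generations and is present in all cells, so no effect can be assigned to 1 cell type. The labels do not give the sex of the mice or say which were littermates. D6, encoded by Ackr2, binds inflammatory CC chemokines and takes them into the cell for degradation without signalling. Among those chemokines are ligands that draw monocytes into tissue.

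Resident macrophages lie between the tubules of every kidney, and monocytes from the blood add to them when tubules or glomeruli are injured. Both take up debris through scavenger and lectin receptors and bind antibody-coated particles through Fc receptors, whose signal passes through small adaptor proteins. The transcription factor PU.1 is needed for the formation of these cells and binds near many of the genes described here. Several of the markers are not limited to macrophages. The CD45 gene Ptprc, Cd52, Cd53, Coro1a, Lcp1, Lcp2 and the integrin chain Itgb2 are active in lymphocytes and granulocytes too, Lgals3 and Gpnmb can be made by injured tubule cells, and Fcgr2b is made by B cells and some endothelium.

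All values are log2 values as deposited, and a difference of 1 is a 2-fold change. Differences were tested with limma over all 16480 genes and called where the p-value, after Benjamini-Hochberg adjustment, fell under 0.05. Errors are standard errors (SE) with 3 arrays per group unless an SD is named or an array was left out. For each gene they rest on 1 estimate of the spread shared by the 4 groups. A wide spread in OVE therefore also widens the errors and intervals of comparisons without OVE. Background was set at 5.93, below which 95% of 1015 olfactory receptor genes had their mean. Ackr2 itself read between 6.74 and 7.04 on the 12 arrays with no difference called between genotypes (-0.10 ± 0.08 for D6 against FVB, limma adjusted p = 1). Whether its probes lie in the deleted stretch is not given, so it checks no label. Its neighbour Slc6a20b separated the genotypes on every array, at 11.13 to 11.26 on the 6 knockout arrays and 11.96 to 12.59 on the 6 arrays with D6 intact. None of the 37 genes lies on chromosome 9, which carries Ackr2. As a check of the tissue, 6 proximal tubule genes averaged 11.98 to 12.31 on the 12 arrays. OVE replicate 3 stood apart from the other diabetic kidneys with D6 intact. On the first principal component of all tested genes, which held 35.9% of the variance, it lay at 6.95, OVE replicates 1 and 2 at 27.03 and 29.37, and the other 9 arrays between -15.13 and 5.17.

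Across the 37 genes, OVE kidneys held the highest group mean for 33, the exceptions being Fcgr2b, Marco, Timd4 and Folr2. OVE replicates 1 and 2 both lay above all FVB, D6 and OVE-D6 arrays for 32 genes. OVE replicate 3 was the lowest OVE array for 35 of the 37, where this held for 30.5% of all tested genes. Yet it lay above every FVB array for 28, above every OVE-D6 array for 27 and above every D6 array for 12. Shares of all tested genes were not worked out for the counts of 33, 32, 28, 27 and 12. The median SD between replicates over the 37 genes was 0.534 in OVE, against 0.152 in FVB, 0.177 in D6 and 0.122 in OVE-D6. The average log2 value over the 37 genes ran from 6.57 to 6.72 on the FVB arrays, 6.76 to 7.03 on the D6 arrays, 7.03 to 7.92 on the OVE arrays and 6.73 to 6.84 on the OVE-D6 arrays. The D6 and OVE-D6 ranges overlapped, and the lowest OVE array lay close to the highest D6 array. The heat map shows all 37 genes array by array.

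**Figure D1:**
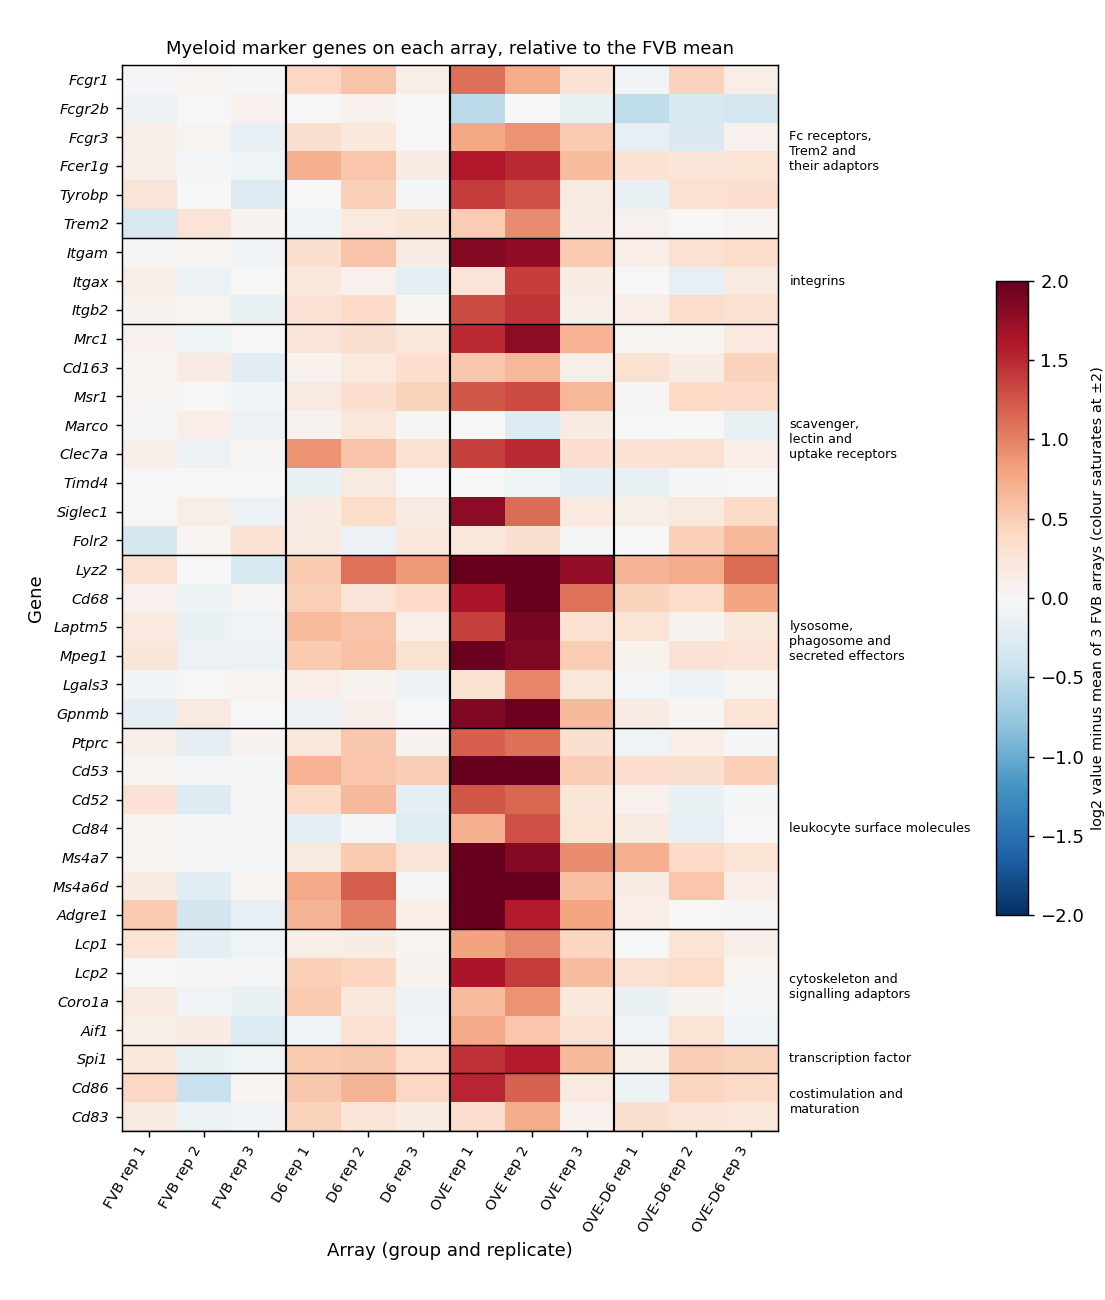
Each row is 1 of the 37 measured genes, grouped by role, and each column 1 array; colour gives the log2 value minus the mean of the 3 FVB arrays and saturates at 2 above or below it. OVE replicates 1 and 2 are red in nearly all rows, OVE replicate 3 is paler, and Fcgr2b, Marco, Timd4 and Folr2 do not follow the other rows.

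The comparison of OVE with FVB asked how diabetes altered these genes where D6 was intact. Of the 35 tested genes 22 rose and none fell, beside 4.9% of all tested genes that rose and 2.38% that fell, and 31 had an unadjusted p under 0.05, beside 24.1% of all. The median difference over the 37 genes was 0.96, against -0.02 over all tested genes, and 34 of 37 were positive, beside 46.3% of all. For 27 of the 37 every OVE array lay above every FVB array, beside 13.6% of all tested genes. Whole tissue was measured, so more cells of a type and more RNA per cell cannot be told apart. The number of genes called rested on single arrays: it was 10 without OVE replicate 2 (1.6% of all genes rose), 11 without FVB replicate 2 (2.12%) or 3 (1.85%), 14 without OVE replicate 1 (2.97%) and 30 without OVE replicate 3 (7.55%). For 9 genes, Fcgr1, Itgax, Msr1, Clec7a, Gpnmb, Ms4a7, Ms4a6d, Aif1 and Cd86, the FVB mean lay at or under background and the OVE mean above it, so their folds are inexact.

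Among diabetic kidneys, the effect of losing D6 on the same genes was read from OVE-D6 against OVE. Lyz2, Mrc1 and Fcgr3 fell, beside 0.182% of all tested genes, and none of the 35 rose. The median difference over the 37 genes was -0.80, against 0.01 over all tested genes, 35 of 37 were negative, beside 47.3% of all, and 30 of the 35 tested had an unadjusted p under 0.05, beside 14.8%. For 25 of the 37 every OVE-D6 array lay below every OVE array, beside 8.24% of all. This comparison shares its OVE arrays with the one before, so a high OVE array raises the former and lowers the latter. None of the 3 genes passed when any 1 of the FVB or D6 arrays, OVE replicate 1 or 2, or OVE-D6 replicate 1 or 2 was left out, 1 passed without OVE-D6 replicate 3, and 27 fell without OVE replicate 3, where 3.29% of all genes did.

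**Figure D2:**
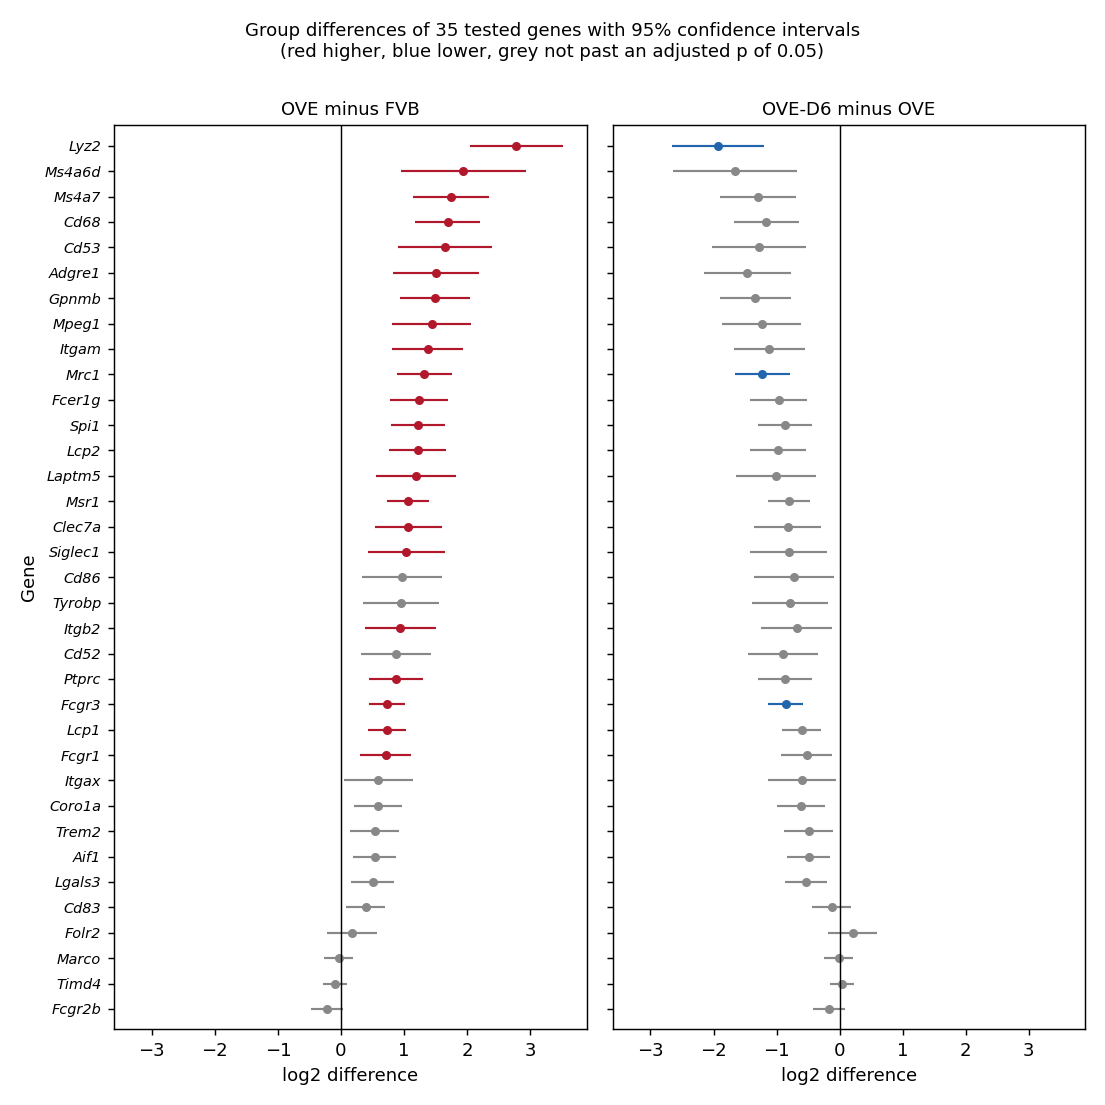
Points are log2 differences and lines their 95% confidence intervals from limma for the 35 tested genes, OVE minus FVB on the left and OVE-D6 minus OVE on the right, ordered by the former. On the left 22 genes are red (higher), led by Lyz2 at 2.78; on the right Lyz2, Mrc1 and Fcgr3 are blue (lower) and the 5 genes at the bottom lie near 0.

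Among phagocyte enzymes and lysosomal proteins was the gene that rose most. Lyz2 encodes the lysozyme that macrophages and neutrophils secrete to break bacterial walls. Lyz2 read 9.08, 8.75 and 8.47 on the FVB arrays, 9.29, 9.86 and 9.63 on the D6 arrays, 11.97, 12.15 and 10.53 on the OVE arrays and 9.46, 9.51 and 9.89 on the OVE-D6 arrays. All 3 OVE arrays lay above the other 9, OVE replicate 3 by the least, and the D6 and OVE-D6 arrays lay at like levels above all FVB arrays. Lyz2 was 6.88-fold higher in OVE than in FVB (log2 2.78 ± 0.34, adjusted p = 0.00155), the second largest rise of all tested genes, and 3.82-fold lower in OVE-D6 than in OVE (log2 -1.93 ± 0.34, adjusted p = 0.0457). Leaving out single arrays, these differences ran from 2.48 (without OVE replicate 2) to 3.29 (without OVE replicate 3) and from -1.63 to -2.44, without the same arrays. The rise passed under all 22 alternative settings, the difference between OVE-D6 and OVE under 7 of 22 (adjusted p up to 0.251). Its neighbour Lyz1, a near-identical copy, was 4.42-fold higher in OVE than in FVB (log2 2.15 ± 0.47, adjusted p = 0.0193), an inexact fold from an FVB mean of 5.33 under background, and shared probe signal between the copies was not tested.

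Cd68, a heavily glycosylated protein of the macrophage lysosome, was 3.24-fold higher in OVE than in FVB (log2 1.70 ± 0.24, adjusted p = 0.00329). Cd68 had log2 values of 7.03, 6.83 and 6.96 on the FVB arrays, 7.41, 7.20 and 7.32 on the D6 arrays, 8.58, 9.31 and 8.02 on the OVE arrays and 7.39, 7.30 and 7.73 on the OVE-D6 arrays. Each OVE array lay above all other arrays, and the difference between OVE-D6 and OVE was -1.16 ± 0.24 (adjusted p = 0.0774). Mpeg1, a pore-forming protein of the phagosome, Gpnmb, a glycoprotein of lipid-laden macrophages, and Laptm5, a lysosomal membrane protein of leukocytes, rose 2.72-fold, 2.81-fold and 2.28-fold with diabetes. In OVE-D6 against OVE Mpeg1 differed by -1.23 ± 0.29 and Gpnmb by -1.34 ± 0.26, and the 95% confidence interval for Laptm5 was -1.64 to -0.37, none of which passed. The Gpnmb means of FVB, D6 and OVE-D6 all lay under background, so its fold and difference are inexact. Lgals3, the gene of the carbohydrate-binding protein galectin-3 found in macrophages and epithelium, changed least in this group of genes. Lgals3 lay at 9.19, 9.24 and 9.29 on the FVB arrays, 9.37, 9.31 and 9.14 on the D6 arrays, 9.54, 10.21 and 9.47 on the OVE arrays and 9.22, 9.13 and 9.29 on the OVE-D6 arrays. OVE replicate 2 stood well above the rest, the other OVE arrays lay just above the remaining groups, and the OVE difference of 0.50 ± 0.15 did not pass (adjusted p = 0.0686). Of the 6 lysosomal and effector genes 5 rose in OVE, beside 4.9% of all tested genes, with a median difference of 1.47.

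Fc receptors and their adaptors form the signalling arm of antibody-dependent uptake. Fcer1g, the common gamma chain through which the activating Fc receptors signal, led them. Fcer1g stood at 7.29, 7.16 and 7.11 on the FVB arrays, 7.90, 7.74 and 7.34 on the D6 arrays, 8.78, 8.67 and 7.81 on the OVE arrays and 7.47, 7.43 and 7.46 on the OVE-D6 arrays. OVE replicates 1 and 2 stood well above OVE replicate 3, which still exceeded every FVB and OVE-D6 array but not D6 replicate 1. Fcer1g was 2.36-fold higher in OVE than in FVB (log2 1.24 ± 0.21, adjusted p = 0.0068) and differed by -0.97 ± 0.21 between OVE-D6 and OVE (adjusted p = 0.0838).

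Fcgr3 encodes the low-affinity activating receptor for immunoglobulin G. Fcgr3 measured 6.65, 6.59 and 6.36 on the FVB arrays, 6.86, 6.75 and 6.54 on the D6 arrays, 7.31, 7.44 and 7.06 on the OVE arrays and 6.38, 6.24 and 6.63 on the OVE-D6 arrays. The OVE arrays lay above all others, and the OVE-D6 arrays lay within or below the FVB range. It was 1.66-fold higher in OVE than in FVB (log2 0.73 ± 0.13, adjusted p = 0.00815) and 1.81-fold lower in OVE-D6 than in OVE (log2 -0.86 ± 0.13, adjusted p = 0.0393), a call kept under 10 of 22 alternatives. Fcgr1, the high-affinity receptor, was 1.64-fold higher in OVE (log2 0.71 ± 0.19, adjusted p = 0.0399), from an FVB mean of 5.81 near background that makes the fold inexact.

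Fcgr2b, the inhibitory member of the family, took another course. Fcgr2b read 8.50, 8.62 and 8.70 on the FVB arrays, 8.61, 8.70 and 8.63 on the D6 arrays, 8.09, 8.60 and 8.48 on the OVE arrays and 8.10, 8.30 and 8.26 on the OVE-D6 arrays. OVE replicate 2 lay within the FVB range and the other OVE arrays below it, and the OVE-D6 arrays lay below all FVB and D6 arrays. Fcgr2b differed by -0.22 ± 0.12 between OVE and FVB (adjusted p = 0.272) and by -0.42 ± 0.12 between OVE-D6 and D6 (adjusted p = 0.182), neither of which passed. Fcgr2b and Fcgr3 are related in sequence, and whether their probes share signal was not tested. Tyrobp, the adaptor DAP12, and Trem2, a lipid-sensing receptor that signals through it, differed by 0.96 ± 0.28 and 0.54 ± 0.18 in OVE against FVB (adjusted p = 0.0558 and 0.0913), and OVE replicate 3 lay within the FVB range for both. Of the 6 genes of this group 3 rose in OVE, beside 4.9% of all tested genes, with a median difference of 0.72. In OVE-D6 against OVE 1 fell, beside 0.182% of all.

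Integrins let leukocytes cross vessel walls and bind complement-coated particles. Itgam encodes the CD11b chain. Itgam had log2 values of 6.00, 6.02 and 5.91 on the FVB arrays, 6.30, 6.55 and 6.13 on the D6 arrays, 7.81, 7.74 and 6.51 on the OVE arrays and 6.12, 6.28 and 6.33 on the OVE-D6 arrays. OVE replicates 1 and 2 stood more than 1 log2 unit above every array of the other groups, and OVE replicate 3 lay within the D6 range. Itgam was 2.60-fold higher in OVE than in FVB (log2 1.38 ± 0.26, adjusted p = 0.0108). Its partner Itgb2, the shared beta chain, was 1.92-fold higher (log2 0.94 ± 0.26, adjusted p = 0.0485). That call was kept under 7 of 22 alternatives (limma adjusted p up to 0.171). Itgax, the CD11c chain of dendritic cells and some macrophages, did not pass (0.60 ± 0.25, adjusted p = 0.169). Itgax lay at 6.00, 5.76 and 5.87 on the FVB arrays, 6.10, 5.97 and 5.70 on the D6 arrays, 6.13, 7.25 and 6.03 on the OVE arrays and 5.87, 5.71 and 6.05 on the OVE-D6 arrays. OVE replicate 2 alone stood high, while OVE replicates 1 and 3 lay close to the other groups. None of the 3 integrins passed in OVE-D6 against OVE, where they differed by -1.11, -0.68 and -0.59.

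Among scavenger and lectin receptors some rose with diabetes and some did not pass. Mrc1 is the mannose receptor of tissue macrophages. Mrc1 stood at 7.25, 7.08 and 7.15 on the FVB arrays, 7.41, 7.48 and 7.39 on the D6 arrays, 8.65, 8.95 and 7.85 on the OVE arrays and 7.22, 7.20 and 7.35 on the OVE-D6 arrays. The 3 OVE arrays lay above the other 9, and the OVE-D6 arrays lay just below the D6 arrays and in or just above the FVB range. Mrc1 was 2.51-fold higher in OVE than in FVB (log2 1.33 ± 0.20, adjusted p = 0.00438) and 2.34-fold lower in OVE-D6 than in OVE (log2 -1.23 ± 0.20, adjusted p = 0.0393). Leaving out OVE replicate 2 these differences were 1.09 and -0.99, and leaving out OVE replicate 3 they were 1.64 and -1.54. The rise of Mrc1 passed under all 22 alternatives and its difference between OVE-D6 and OVE under 9 of 22. Msr1, the class A scavenger receptor, Clec7a, the beta-glucan receptor dectin-1, and Siglec1, a sialic acid-binding receptor, rose 2.10-fold, 2.09-fold and 2.05-fold in OVE. The folds of Msr1 and Clec7a start from FVB means of 5.37 and 5.36, under the background value. The rise of Siglec1 passed under 6 of 21 alternatives (limma adjusted p up to 0.14).

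Marco, Timd4 and Folr2, which mark particular macrophages, did not pass, and Cd163, of alternatively activated macrophages, was not tested. Timd4 encodes a receptor for phosphatidylserine on dying cells. Timd4 measured 6.03, 6.02 and 6.04 on the FVB arrays, 5.89, 6.21 and 6.01 on the D6 arrays, 6.02, 5.94 and 5.83 on the OVE arrays and 5.88, 5.99 and 6.03 on the OVE-D6 arrays. All 12 values lay between 5.83 and 6.21, close to background, and the OVE arrays lay at or below the lowest FVB array (-0.10 ± 0.09, adjusted p = 0.533). Marco, a bacterial scavenger receptor, lay at means between 5.88 and 6.03 and differed by -0.03 ± 0.11 in OVE against FVB. Cd163, the haemoglobin scavenger receptor, had means of 4.89 in FVB, 5.09 in D6, 5.33 in OVE and 5.19 in OVE-D6, highest in OVE as for most of the genes but all under background. Folr2, a folate receptor of resident macrophages, was well above it. Folr2 read 6.84, 7.21 and 7.46 on the FVB arrays, 7.33, 7.05 and 7.39 on the D6 arrays, 7.40, 7.49 and 7.15 on the OVE arrays and 7.18, 7.64 and 7.83 on the OVE-D6 arrays. The groups overlapped throughout, with a difference of 0.18 ± 0.18 between OVE and FVB (95% confidence interval -0.21 to 0.57) and 0.21 ± 0.18 between OVE-D6 and OVE. Of the 8 receptors, 7 of them tested, 4 rose in OVE, beside 4.9% of all tested genes, with a median difference of 0.74 over the 8. Mrc1 alone fell in OVE-D6 against OVE, beside 0.182% of all.

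Surface molecules of leukocytes gave the pan-leukocyte view. Ptprc encodes CD45, present on all nucleated blood cells. Ptprc had log2 values of 7.52, 7.21 and 7.47 on the FVB arrays, 7.62, 7.94 and 7.47 on the D6 arrays, 8.59, 8.51 and 7.72 on the OVE arrays and 7.32, 7.53 and 7.38 on the OVE-D6 arrays. OVE replicates 1 and 2 stood apart, OVE replicate 3 lay above all FVB and OVE-D6 arrays but under D6 replicate 2, and OVE-D6 and FVB arrays were mixed. Ptprc was 1.83-fold higher in OVE than in FVB (log2 0.87 ± 0.20, adjusted p = 0.0213) and differed by -0.86 ± 0.20 in OVE-D6 against OVE (adjusted p = 0.0927). OVE-D6 and FVB differed by 0.01 with a 95% confidence interval of -0.42 to 0.44.

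Adgre1 encodes an adhesion receptor that is the classical surface marker of mouse macrophages. Adgre1 lay at 7.10, 6.20 and 6.41 on the FVB arrays, 7.26, 7.58 and 6.70 on the D6 arrays, 8.73, 8.15 and 7.36 on the OVE arrays and 6.70, 6.56 and 6.59 on the OVE-D6 arrays. Its FVB and D6 arrays were widely spread, with FVB replicate 1 and D6 replicate 2 high, while the 3 OVE-D6 arrays lay close together. Adgre1 was 2.84-fold higher in OVE than in FVB (log2 1.51 ± 0.32, adjusted p = 0.0164) and differed by -1.46 ± 0.32 in OVE-D6 against OVE (adjusted p = 0.0838).

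Ms4a6d and Ms4a7, membrane-spanning proteins of macrophages, and Cd53, a tetraspanin of leukocytes, rose 3.84-fold, 3.37-fold and 3.14-fold in OVE. Ms4a6d stood at 5.16, 4.78 and 5.05 on the FVB arrays, 5.75, 6.21 and 4.96 on the D6 arrays, 7.82, 7.39 and 5.60 on the OVE arrays and 5.15, 5.55 and 5.12 on the OVE-D6 arrays. D6 replicates 1 and 2 lay above every FVB and OVE-D6 array for Ms4a6d, and the FVB means of Ms4a6d and Ms4a7 were under background, so their folds are inexact. Cd84, an adhesion receptor of the SLAM family, did not pass the filter. Cd84 measured 5.01, 4.92 and 4.94 on the FVB arrays, 4.77, 4.94 and 4.72 on the D6 arrays, 5.69, 6.24 and 5.23 on the OVE arrays and 5.14, 4.79 and 4.95 on the OVE-D6 arrays. Only OVE replicate 2 lay above background for Cd84. Cd52, a small glycosylated surface antigen, differed by 0.88 ± 0.26 (adjusted p = 0.0567). Of the 7 surface genes, 6 of them tested, 5 rose in OVE, beside 4.9% of all tested genes, with a median difference of 1.51 over the 7. None of the 6 tested passed in OVE-D6 against OVE, where 0.182% of all fell.

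Of the 4 genes of the leukocyte cytoskeleton and its signalling 2 rose in OVE, beside 4.9% of all tested genes. Their median difference was 0.66. Lcp2, the adaptor SLP-76, had the largest. Lcp2 read 6.81, 6.84 and 6.79 on the FVB arrays, 7.29, 7.25 and 6.89 on the D6 arrays, 8.45, 8.21 and 7.43 on the OVE arrays and 7.12, 7.18 and 6.87 on the OVE-D6 arrays. The lowest OVE array lay above all arrays of the other groups. It was 2.32-fold higher in OVE (log2 1.22 ± 0.21, adjusted p = 0.0068), and Lcp1, the actin-bundling protein L-plastin, 1.66-fold (log2 0.73 ± 0.14, adjusted p = 0.0119). Coro1a, an actin regulator, and Aif1, a calcium-binding protein known as a microglia and macrophage marker, differed by 0.58 ± 0.18 and 0.53 ± 0.16 and did not pass. Aif1 had log2 values of 5.93, 5.96 and 5.53 on the FVB arrays, 5.75, 6.12 and 5.72 on the D6 arrays, 6.56, 6.36 and 6.11 on the OVE arrays and 5.74, 6.08 and 5.72 on the OVE-D6 arrays. The Aif1 groups differed little, and D6 replicate 2 alone reached the lowest OVE array. For all 4 genes every OVE-D6 array lay below every OVE array, beside 8.24% of all tested genes, with differences between -0.49 and -0.97 that did not pass.

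The costimulatory ligand Cd86 and the maturation marker Cd83 of antigen-presenting cells did not pass in any comparison. Cd86 lay at 6.02, 5.15 and 5.63 on the FVB arrays, 6.14, 6.28 and 6.01 on the D6 arrays, 7.12, 6.77 and 5.80 on the OVE arrays and 5.50, 6.04 and 5.98 on the OVE-D6 arrays. For Cd86, OVE replicates 1 and 2 were high and OVE replicate 3 lay within the FVB range (0.97 ± 0.29 for OVE against FVB, adjusted p = 0.0659). Cd83 stood at 6.82, 6.54 and 6.58 on the FVB arrays, 7.10, 6.89 and 6.79 on the D6 arrays, 6.99, 7.39 and 6.74 on the OVE arrays and 6.97, 6.90 and 6.88 on the OVE-D6 arrays. The Cd83 groups overlapped, apart from FVB against OVE-D6, where each OVE-D6 array was higher (0.27 ± 0.14, adjusted p = 0.481).

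**Figure D3:**
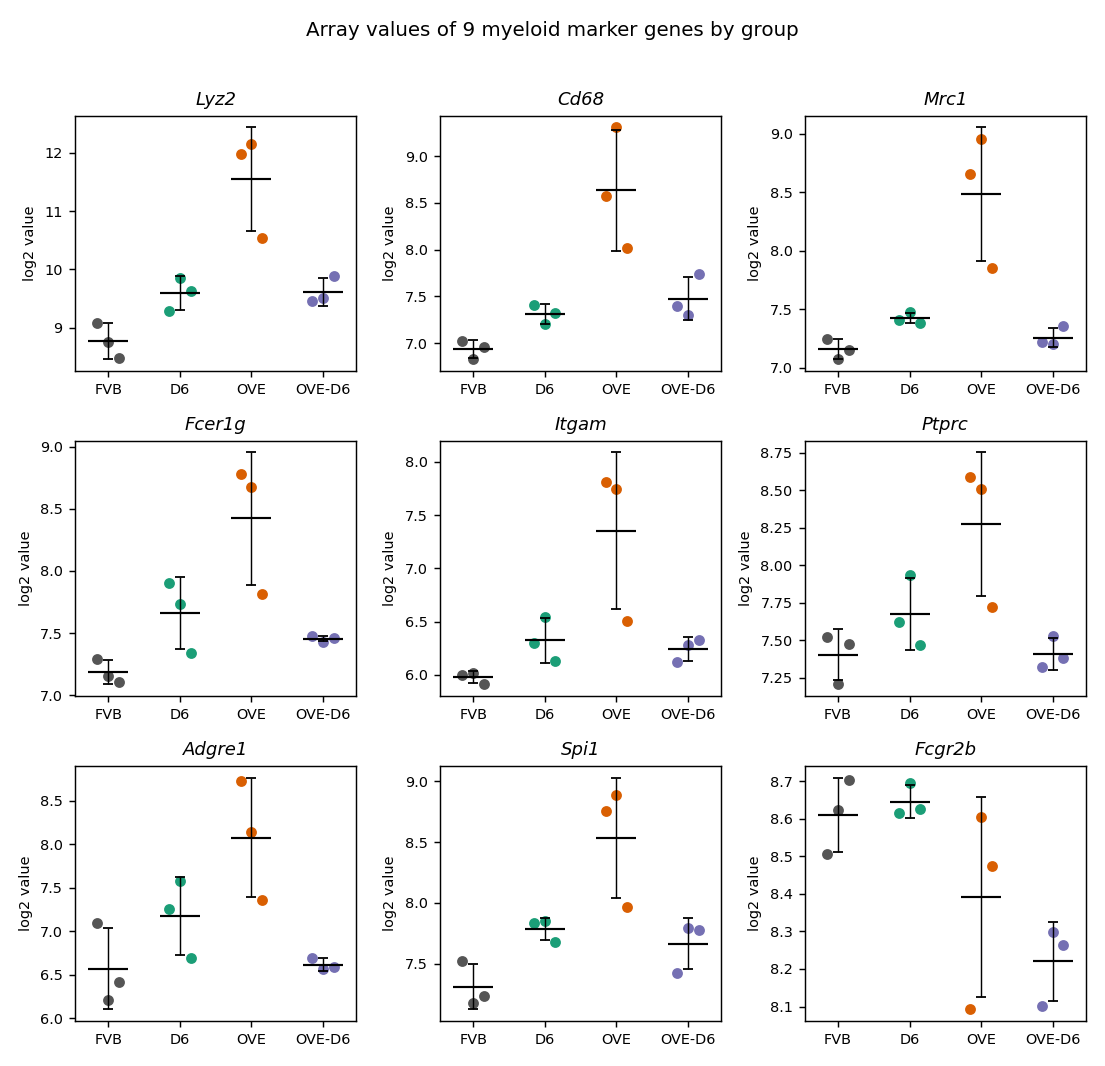
Points are the log2 values of the 3 arrays in each group for 9 genes, horizontal bars the group means and vertical bars 1 SD; the vertical axis of each panel starts at its own value. In 8 panels OVE is highest with its replicate 3 lowest of the 3, while in the Fcgr2b panel the OVE-D6 arrays lie lowest together with OVE replicate 1.

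Spi1, the gene of PU.1, rose in OVE as well. Spi1 measured 7.52, 7.18 and 7.23 on the FVB arrays, 7.83, 7.85 and 7.68 on the D6 arrays, 8.75, 8.88 and 7.96 on the OVE arrays and 7.43, 7.79 and 7.78 on the OVE-D6 arrays. All 3 OVE arrays lay above the other 9, and all D6 arrays lay above all FVB arrays. Spi1 was 2.34-fold higher in OVE than in FVB (log2 1.22 ± 0.20, adjusted p = 0.00581) and differed by -0.87 ± 0.20 in OVE-D6 against OVE (adjusted p = 0.0927). Because PU.1 binds purine-rich sites, the 250 bases before the annotated start were searched on both strands for GAGGAAG and AGGAAGT, heptamers that share the letters AGGAAG. RefSeq windows (GRCm38.p6) were held for 27 of the 37 genes. Of these 7 contained GAGGAAG, 5 AGGAAGT and 10 either, which is 37% of them, beside 12%, 8.8% and 17.2% of 27025 genes. The 10 were Fcgr1, Fcgr3, Trem2, Itgam, Mrc1, Marco, Folr2, Lyz2, Laptm5 and Ptprc, so both genes that rose and genes that did not are among them. A match describes the letters only, and binding was not measured.

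The windows of the 4 matching genes with the largest rise in OVE, among those whose window lies wholly before the gene, are shown to place these heptamers. They are written 5′ to 3′ on the strand of the gene, with the matched letters in capitals.
Lyz2 (chr10:117282273-117282522, reverse strand): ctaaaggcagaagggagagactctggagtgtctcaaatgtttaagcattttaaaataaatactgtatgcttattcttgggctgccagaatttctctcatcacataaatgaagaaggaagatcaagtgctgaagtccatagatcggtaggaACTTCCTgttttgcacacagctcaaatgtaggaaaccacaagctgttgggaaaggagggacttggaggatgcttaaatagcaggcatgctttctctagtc
Itgam (chr7:128062390-128062639, forward strand): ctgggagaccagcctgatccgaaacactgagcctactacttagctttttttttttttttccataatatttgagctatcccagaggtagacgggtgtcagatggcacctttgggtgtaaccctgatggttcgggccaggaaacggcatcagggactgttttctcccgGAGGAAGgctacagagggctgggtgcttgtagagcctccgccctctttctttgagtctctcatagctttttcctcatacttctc
Mrc1 (chr2:14229164-14229413, forward strand): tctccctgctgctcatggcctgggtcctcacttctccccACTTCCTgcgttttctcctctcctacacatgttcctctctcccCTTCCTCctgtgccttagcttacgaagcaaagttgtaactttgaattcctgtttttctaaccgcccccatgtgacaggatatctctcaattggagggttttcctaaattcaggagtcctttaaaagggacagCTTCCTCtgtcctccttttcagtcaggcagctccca
Fcgr1 (chr3:96293970-96294219, reverse strand): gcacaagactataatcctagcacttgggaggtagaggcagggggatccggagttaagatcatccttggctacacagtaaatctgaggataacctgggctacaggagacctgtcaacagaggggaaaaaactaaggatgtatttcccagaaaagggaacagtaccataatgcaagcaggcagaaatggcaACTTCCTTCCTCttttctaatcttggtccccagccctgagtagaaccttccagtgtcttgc
In Lyz2 the match reads ACTTCCT, on the opposite strand, and begins 100 bases before the start. In Itgam GAGGAAG lies on the gene's own strand, 84 bases before it. Mrc1 holds 3 matches on the opposite strand, at 211, 168 and 36 bases before the start, and Fcgr1 holds a pair on the opposite strand that overlap at 61 and 56 bases.

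Without diabetes, loss of D6 came with slightly higher values of most of these genes, none of which passed. The FVB and D6 means of Gpnmb and Ms4a6d lay under background, as did the FVB mean of Clec7a, so their differences here are inexact. In D6 against FVB 36 of the 37 differences were positive, beside 51.4% of all tested genes, with a median of 0.27 against 0.00 over all genes. By limma none of the 35 was called higher, beside 0% of all genes, and 4 had an unadjusted p under 0.05, beside 3.82% of all. Those were Lyz2 (0.82 ± 0.34), Clec7a (0.59 ± 0.24), Spi1 (0.48 ± 0.20) and Fcer1g (0.47 ± 0.21). The shared spread behind these errors includes OVE, whose median SD was 0.534, against 0.152 in FVB and 0.177 in D6. Mrc1 differed by 0.26 ± 0.20 here, and its error was 0.09 without OVE replicate 3. For 14 of the 37 every D6 array lay above every FVB array, beside 5.59% of all. Adgre1 differed by 0.61 ± 0.32 and Ms4a6d by 0.65 ± 0.45, with overlapping groups. The 95% confidence interval of the Lyz2 difference ran from 0.09 to 1.55.

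In mice without D6, no gene changed by the test between diabetic and non-diabetic kidneys, and the differences centred just below 0. In OVE-D6 against D6 the median difference was -0.08, against -0.01 over all genes, and 11 of 37 differences were positive, beside 47.6% of all. By limma none of the 35 was called, beside 0.182% of all genes higher and 0.103% lower, and Fcgr2b and Fcgr3 alone had an unadjusted p under 0.05, beside 9.98% of all. Lyz2 differed by 0.03 with a 95% confidence interval of -0.71 to 0.76, Mrc1 by -0.17 (-0.60 to 0.27) and Spi1 by -0.12 (-0.55 to 0.31). Adgre1, at -0.56 ± 0.32, was lowest. For 6 of the 37, Fcgr2b, Mrc1, Marco, Mpeg1, Cd53 and Adgre1, every OVE-D6 array lay below every D6 array, beside 8.68% of all.

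Against healthy kidneys with D6 intact, OVE-D6 kidneys read slightly higher for most genes. The median difference between OVE-D6 and FVB was 0.19, against 0.00 over all genes, and 30 of 37 differences were positive, beside 49% of all. Of the 37, 10 genes had every OVE-D6 array above every FVB array, beside 11.1% of all, and by limma none of the 35 was called, beside 0.328% of all genes higher and 0.243% lower. Lyz2 (0.85 ± 0.34), Cd68 (0.54 ± 0.24) and Fcgr2b (-0.39 ± 0.12) had an unadjusted p under 0.05, as 12.9% of all genes did. For 29 of the 37 genes the OVE-D6 mean lay between the FVB and the OVE mean, a count with no share of all genes worked out.

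The interaction compared the diabetes difference in knockouts with that in mice with intact D6. The difference was lower, meaning less positive or more negative, in knockouts for 35 of the 37 genes, all but Timd4 and Folr2, beside 48.4% of all. For Fcgr2b and Marco both differences were negative and the one in knockouts was larger, at -0.42 against -0.22 for Fcgr2b. The median interaction was -1.12, against 0.01 over all genes. By limma none of the 35 passed, beside 0% of all genes, while 29 had an unadjusted p under 0.05, beside 9.99% of all. Lyz2 gave -2.76 ± 0.48, Ms4a6d -2.31 ± 0.64 and Adgre1 -2.07 ± 0.45 (limma adjusted p = 0.173, 0.287 and 0.193). The Ms4a6d means of FVB, D6 and OVE-D6 lay under background, so its value is inexact. The count depended on OVE replicate 3, the lowest OVE array for 35 of the 37 genes. Leaving it out, with OVE replicates 1 and 2 alone in that group, lowered the Lyz2 error from 0.48 to 0.27. Without it 26 of the 35 genes passed, where 2.13% of all genes were called lower, and the median was -1.41. Lyz2 then gave -3.27 ± 0.27 and Cd53 -2.43 ± 0.15, with 2 OVE arrays. The 9 tested genes that did not pass then were Aif1, Cd83, Fcgr2b, Folr2, Itgax, Lgals3, Marco, Timd4 and Trem2. Leaving out the lowest OVE array enlarges most of these differences by itself. The count of 26 and these values therefore describe the dependence on that array and do not test the interaction.

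**Figure D4:**
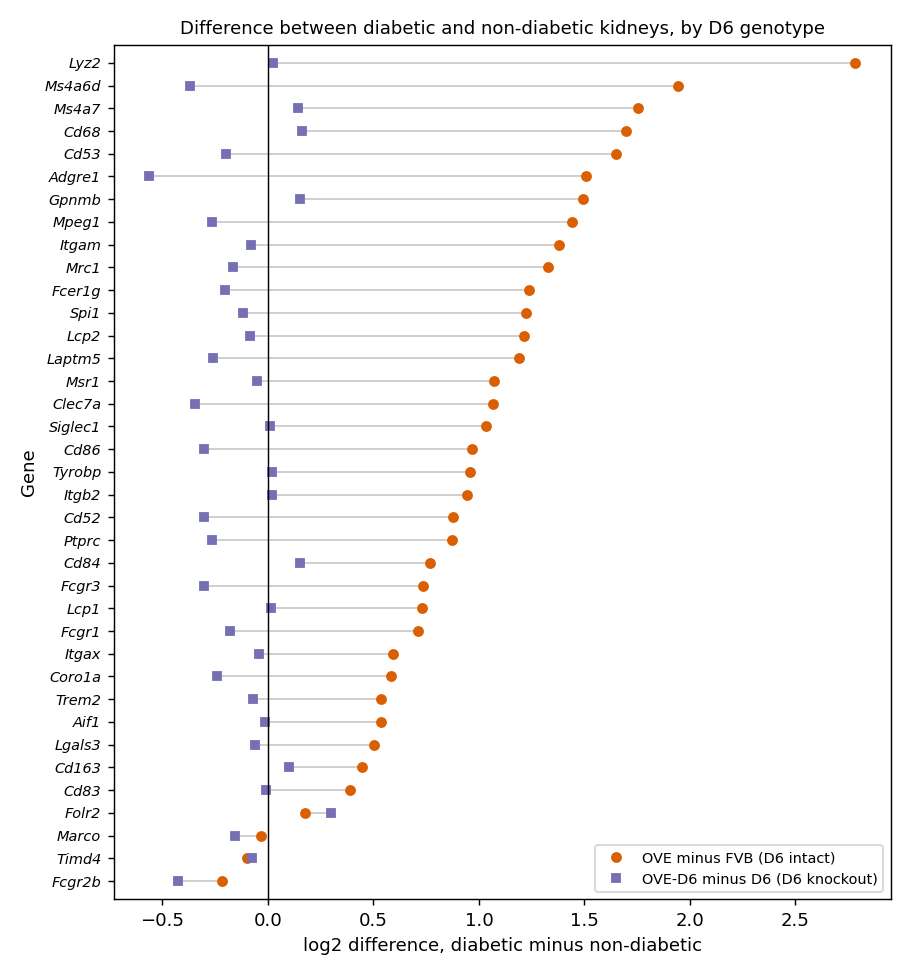
For each of the 37 genes the circle gives OVE minus FVB and the square OVE-D6 minus D6, both as log2 differences, ordered by the former. Circles reach 2.78 (Lyz2), while squares stay between -0.56 (Adgre1) and 0.30 (Folr2).

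Beyond these, 48 other myeloid genes were listed. Of 44 measured and 36 tested, 23 rose in OVE against FVB and none fell, with a median of 0.68. Of all tested genes 4.9% rose and 2.38% fell. The largest rises were those of Ms4a6c at 3.68-fold, Clec10a, a lectin of macrophages and dendritic cells, at 3.30-fold, Ms4a6b at 2.92-fold and Clec12a, an inhibitory lectin receptor, at 2.89-fold. The FVB means of Clec10a (5.70) and Clec12a (5.45) were under background, so these folds and their rank are inexact. In OVE-D6 against OVE 1 fell, beside 0.182% of all tested genes, the macrophage elastase gene Mmp12 at 2.71-fold (log2 -1.44 ± 0.25, limma adjusted p = 0.0457). The median was -0.58. None passed in D6 against FVB, OVE-D6 against D6, OVE-D6 against FVB or the interaction by limma. There 2, 2, 3 and 29 of the 36 had an unadjusted p under 0.05, beside 3.82%, 9.98%, 12.9% and 9.99% of all tested genes. Of the 44 measured, 11 had every group mean at or under background, Arg1, Chil3 and Retnla among them, though Retnla read 6.88 on OVE replicate 2.

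Few markers of other blood cells passed the test in OVE against FVB, where 4.9% of all tested genes rose, but most T cell genes read higher. Differences were positive for 8 of 9 T cell, 6 of 11 neutrophil, 3 of 6 B and plasma cell and 4 of 6 NK cell genes, beside 46.3% of all. Of the 8 tested T cell genes 4 had an unadjusted limma p under 0.05, beside 24.1% of all. For 4 of the 9 every OVE array lay above every FVB array, beside 13.6%. Of 11 neutrophil genes 9 were under background in every group, S100a8, S100a9, Mpo and Elane among them, and the list averaged 5.20 to 5.26 in FVB, 5.11 to 5.33 in D6, 5.26 to 5.39 in OVE and 5.18 to 5.21 in OVE-D6. Csf3r, also active in monocytes, was the only neutrophil gene that rose in OVE (1.52-fold, log2 0.60 ± 0.13). The 9 measured T cell genes averaged 5.89 to 5.93 in FVB, 6.00 to 6.10 in D6, 5.95 to 6.43 in OVE and 5.94 to 6.02 in OVE-D6, Cd3g rose 1.89-fold in OVE (log2 0.92 ± 0.21), an inexact fold from an FVB mean of 5.32 under background, and Cd3d and Cd2 were under background. The 6 B and plasma cell genes averaged 6.15 to 6.33, 6.11 to 6.31, 5.98 to 6.66 and 5.84 to 6.03 in the same order of groups, with none called and with Cd79a, Ms4a1 and Blk under background. For the 6 NK cell genes, 4 of them under background, these ranges were 5.19 to 5.27, 5.29 to 5.34, 5.18 to 5.51 and 5.22 to 5.42, with none called. The part of these cells in the differences of Ptprc, Cd52, Cd53, Coro1a, Lcp1, Lcp2 and Itgb2 was not tested. The 7 dendritic cell genes, which bear on Itgax, Cd86 and Cd83, averaged 6.18 to 6.33, 6.19 to 6.52, 6.11 to 6.83 and 5.89 to 6.09, with Xcr1 under background and none called, and their part was not tested either. The 7 endothelial genes, which could bear on Fcgr2b, averaged 10.07 to 10.12, 9.96 to 10.13, 9.98 to 10.19 and 10.02 to 10.07, with none called in any comparison.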

How the data were processed

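RNA from 12 kidneys, 1 per mouse, was labelled from 100 ng each and hybridised to Affymetrix arrays, per the labels' protocols, after an RNA integrity number above 8.8 had been required. The deposited values were log2 intensities from the authors, 1 per probe set, kept here unaltered. Their background correction and normalization are not given in the sources used here. Array medians lay between 6.84 and 6.93, and the number of arrays limits the precision. Probe sets annotated to 1 symbol were used, symbols were updated through RefSeq (GRCm38.p6), and a gene with several probe sets was read from the one with the highest mean. A gene was tested where 3 or more arrays held it above the 25th percentile of that array. A model of 4 group means over all 12 arrays was fitted with limma 3.58.1 (R 4.3.3, lmFit and eBayes), with 6 comparisons and adjustment over all tested genes; the method was tested on simulated data. The members and all lists were chosen with earlier results of these data known. Every measured member is accounted for; values on each array are given for Ptprc, Spi1, Adgre1, the genes called in OVE-D6 against OVE and those with the largest and smallest OVE against FVB difference in each role, with Cd68 and Folr2 added after their values were seen. Lyz1 was also chosen after its values were seen. Same-numbered mice were not paired by the labels, so no block was used. Alternatives changed the filter, the scaling, the variance model, the arrays fitted and the threshold.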

Additional observations from a re-analysis of the deposited data

How the results depend on the processing

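Counts of members called, out of those tested, moved most with single arrays. In OVE against FVB the count of 22 ran from 10 (without OVE replicate 2) to 30 (without OVE replicate 3) and its median difference of 0.96 from 0.76 to 1.35. The count was 14 with the filter at the 50th percentile, where fewer members were tested. It was 10 when the 2 groups compared were fitted alone, where 2.04% of all genes rose. In OVE-D6 against OVE the count of 3 ran from 0 to 27 and the median of -0.80 from -1.14 to -0.65. This count was 12 at an adjusted p of 0.1 and 13 with array weights. It was 0 when the 2 groups were fitted alone (smallest limma adjusted p = 0.251), where 0% of all genes fell. Shares of all genes were not worked out for the 50th percentile filter, the adjusted p of 0.1 or the array weights, so those counts describe the settings only. In the interaction the count of 0 ran to 26 without OVE replicate 3, and its median of -1.12 from -1.41 to -0.99. The cause of these moves was not tested. In D6 against FVB, OVE-D6 against D6 and OVE-D6 against FVB the count stayed at 0 under every alternative run, with medians from 0.20 to 0.35, -0.17 to -0.04 and 0.14 to 0.27. No median and no called member changed sign. Without OVE replicate 3 the differences of Marco and Timd4 in OVE-D6 against OVE, neither called, changed sign to 0.09 and -0.01, and the Timd4 interaction to -0.03. Same-numbered arrays showed little shared deviation (correlations from -0.25 to 0.12), and the labels do not pair them. With 3 arrays a group these correlations cannot settle whether same-numbered arrays share an effect. With a replicate block 0 members passed in OVE-D6 against OVE (smallest limma adjusted p = 0.0648), a count with no share of all genes worked out. Other scalings moved the median of all genes by at most 0.027. The 3 arrays a group limit what can be called, and signal near background limits Timd4, Marco, Cd163 and Cd84.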

Other observations

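Dendritic cell genes did not share 1 course, and the genes named here were chosen after their values were seen. Clec9a, a receptor of cross-presenting dendritic cells, differed by -0.97 ± 0.27 between OVE-D6 and D6 (limma adjusted p = 0.186) and by -0.14 ± 0.27 between OVE and FVB (adjusted p = 0.795). Cd209a, a lectin of monocyte-derived dendritic cells, differed by 1.15 ± 0.36 between OVE and FVB (adjusted p = 0.0737) and by -1.25 ± 0.36 between OVE-D6 and OVE (adjusted p = 0.158). Jchain, the joining chain made by plasma cells, differed by -1.72 ± 0.49 between OVE-D6 and OVE (adjusted p = 0.154). The 5 mast cell genes averaged 4.83 to 5.21 in FVB, 5.22 to 5.45 in D6, 4.88 to 5.21 in OVE and 5.03 to 5.26 in OVE-D6, and Cpa3, a mast cell protease, differed by 0.67 ± 0.26 between D6 and FVB (adjusted p = 1). Fat genes, which track how much fat was dissected with a kidney, averaged 5.54 to 7.90 in FVB, 5.99 to 6.65 in D6, 6.14 to 6.57 in OVE and 5.67 to 7.04 in OVE-D6. Of 5 genes of the loop, podocyte and collecting duct, Nphs1 and Slc12a3 fell in OVE against FVB, and of 6 proximal tubule genes Lrp2 did.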
